A study of Rattus norvegicus with 93 samples.

Results

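Bone marrow was examined 24 h after topotecan given alone, in 7 treated rats and 7 vehicle rats, 14 of the 93 arrays of the series. The arrays were chosen by their labels and both orders of infusion were pooled. Topotecan/D5W (n = 3) and D5W/topotecan (n = 4) rats received topotecan in saline at 4.7 mg/kg before or after dextrose in water (D5W), the vehicle of oxaliplatin. NaCl/D5W (n = 4) and D5W/NaCl (n = 3) rats received saline and D5W in the same orders without a drug. All were male Sprague-Dawley rats with a femoral vein cannula, and the marrow was flushed from the left femur, so every array holds all marrow cells at once. Each rat gave 1 array and is 1 replicate. Treated and vehicle rats were compared with infusion order as a term. Values are log2 signals, in which a difference of 1 is a 2-fold change, and differences are topotecan minus vehicle with the standard error (SE) of the fit. The fitted difference can deviate slightly from that of the plain means because of the order term.

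Topotecan holds topoisomerase I on DNA after the enzyme has cut a strand, and the held complex turns into a DNA break when a replication fork runs into it. Marrow makes blood cells continuously, and red cell precursors divide fast while they mature. Such a precursor builds a membrane skeleton, imports iron, makes heme and fills with globin, under transcription factors that include GATA1, TAL1 and KLF1. Type I interferons are signals released upon viral infection or when nucleic acids are sensed out of place, and they switch on a shared set of genes in the cells that receive them.

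The arrays read as marrow. Over the 14 rats the hemoglobin gene Hbb lay between 15.28 and 15.34, near the top of the deposited values. S100a9, a granulocyte gene, lay between 14.70 and 14.77, the platelet gene Pf4 between 13.94 and 14.66, and the B cell gene Cd79b between 10.66 and 11.90. Mpo and Elane, which mark granulocyte precursors, were not among the probe sets analysed here. The mean of 17 skeletal muscle genes, which mark the tissue around the bone, was 5.88 to 5.98 in vehicle rats and 5.98 to 7.08 in topotecan rats. D5W/topotecan rats 90 and 96 (7.08 and 6.82) and topotecan/D5W rat 35 (6.78) had the highest muscle means, and the 24 h list counts were also made without them. The sample codes fall into 4 columns whose meaning is not stated, and D5W/topotecan rats 95 and 96 share theirs with no vehicle rat of this comparison. D5W/topotecan rats 89 and 90 share theirs only with vehicle rat 11, which is of the other order (NaCl/D5W). Between D5W/topotecan and D5W/NaCl rats, drug and column therefore cannot be told apart, which also limits the comparison by order.

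Topotecan changed 1076 of 12532 probe sets at an adjusted p under 0.01 and a fold above 2 (limma). Of these, 486 (3.88%) were higher and 590 (4.71%) lower. Counting each gene once, 325 of 7810 genes rose and 341 fell past that threshold. All 666 had the same direction in either order of infusion, but they were chosen from both orders together, which nearly fixes that outcome. In 294 of the rising and 336 of the falling genes every treated rat lay beyond every vehicle rat. Below, a gene is said to have risen or fallen at an adjusted p under 0.01, whatever its fold. By that rule 25.0% of all genes rose and 20.9% fell, and the median gene stood at 0.04. The groups did not overlap, with topotecan higher, in 15.8% of all genes, and with topotecan lower in 14.3%. No probe set differed by order at an adjusted p under 0.01 (limma, interaction of drug and order), and 200 of the 12532 did at an unadjusted p under 0.05. The median SE of that difference was 0.19, which limits the differences by order that these rats could show. Marrow was measured as a whole, in which fewer cells of a type and less RNA per cell cannot be told apart. Likewise, for a gene that rose, a larger share of such cells and more RNA per cell cannot be told apart. The authors graded the loss of marrow cells at 24 h as mild in topotecan/D5W rats and mild to moderate in D5W/topotecan rats.

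**Figure D1:**
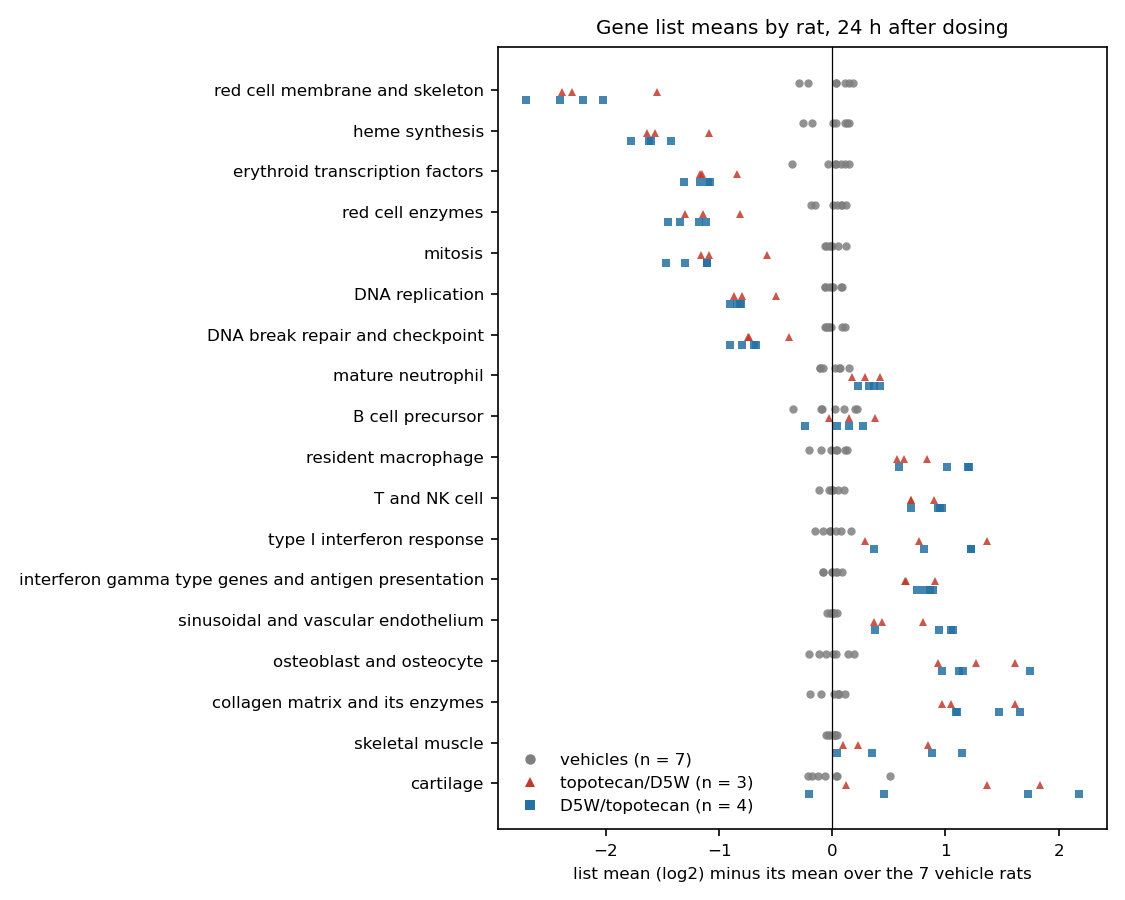
Mean of 18 gene lists in each rat at 24 h, as the log2 difference from the mean of the 7 vehicle rats (x axis). Grey circles are vehicle rats, red triangles topotecan/D5W rats and blue squares D5W/topotecan rats. All 7 topotecan rats lie left of every vehicle rat in the 4 red cell lists and in mitosis, DNA replication and repair, and right of every vehicle rat in the macrophage, T and NK cell, interferon, endothelial, osteoblast and collagen lists.

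Many of the genes that build the maturing red cell fell. Of 17 measured genes of the red cell membrane and its skeleton, 16 fell, 14 of them by more than 2-fold, with a median of -2.31. Rhag, a membrane partner of the Rh proteins, ran from 12.38 through a median of 12.80 to 12.92 in vehicle rats and from 8.18 through 8.88 to 10.64 in topotecan rats. The groups were far apart, although topotecan/D5W rat 35 (10.64) lay well above the other treated rats. The fitted difference was -3.67 (SE 0.27, adjusted p = 6.43e-08), a 12.7-fold fall. Aqp3, a water and glycerol channel, dropped as far, from 9.47 to 10.71 in vehicle rats to 5.85 to 8.33 after topotecan (difference -3.66, SE 0.30). Ank1, the ankyrin that ties band 3 to the skeleton, had a vehicle range of 9.39 to 10.32 and a topotecan range of 5.66 to 7.73 (difference -3.34, SE 0.21). Neither gene had overlapping groups.

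Other parts of the same structure fell in the same rats. Dmtn, which bundles actin at the skeleton's junctions, changed by -3.27 (SE 0.22), Epb42, which links band 3 to the skeleton, by -2.83 (SE 0.24), and Tmod1, which caps the short actin filaments, by -2.81 (SE 0.16). Slc4a1, the anion exchanger called band 3, lay at 12.84 to 13.54 in vehicle rats and at 9.52 to 11.76 after topotecan, with a difference of -2.45 (SE 0.25). Rhd, Aqp1, Kel and Gypc, which carry blood group antigens, fell by between 1.79 and 2.31. The adducins Add2 (-1.61) and Add1 (-0.82) fell less, and so did Epb41 (-1.27) and Xk (-0.71). Bsg, a chaperone of membrane transporters found on many cells, was the single member without a call (0.09, SE 0.09).

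Heme synthesis fell at most of its steps but not at the one that limits its rate. Of 12 measured genes 10 fell, 7 by more than 2-fold, with a median of -1.48. Uros, which closes the porphyrin ring, went from 10.03 to 10.51 in vehicle rats to 6.60 to 8.40 after topotecan (-3.11, SE 0.20, adjusted p = 2.5e-08). Cpox, a late mitochondrial step, changed by -2.77 (SE 0.22), Alad, the step after the first precursor, by -2.51 (SE 0.15), Urod by -2.01 (SE 0.09) and Ppox by -1.94 (SE 0.10). Fech, which inserts the iron, fell by only 0.59 (SE 0.11). Alas2, the red cell form of the rate-limiting enzyme, ranged from 13.54 to 13.90 in vehicle rats and from 13.58 to 14.04 in topotecan rats, so the groups overlapped throughout (0.09, SE 0.08, adjusted p = 0.386). The mitochondrial carrier Slc25a39 was not called either (0.29, SE 0.13).

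Of 4 globin genes, a chaperone included, 1 fell. Ahsp, the chaperone of free alpha globin, went from 14.15 to 14.40 in vehicle rats to 11.67 to 12.89 after topotecan (-2.12, SE 0.15, adjusted p = 5.2e-08). Hbb differed by 0.01 (SE 0.05) and Hba-a3 by 0.12 (SE 0.14), neither of which passed the test. Hbb sat close to the highest values on the arrays.

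Genes of iron uptake fell. Of 12 genes of iron handling 6 fell and 4 rose. Tfrc, the transferrin receptor that brings iron into the cell, lay at 13.65 to 13.73 in vehicle rats and at 11.22 to 12.44 after topotecan (-2.09, SE 0.14). Slc25a37 (mitoferrin, -2.33), Slc11a2 (-2.05), Tfr2 (-1.94) and the iron reductase Steap3 (-1.43) fell with it. The genes that rose were Aco1 (0.65), Slc25a28 (0.60), Fbxl5 (0.51) and the iron exporter Slc40a1 (0.41), all by less than 2-fold.

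Of 13 transcription factors of the red cell lineage 9 fell and none rose. Sox6, which helps red cells complete their maturation, went from 9.25 to 9.74 in vehicle rats to 4.83 to 6.65 in topotecan rats. That is a difference of -3.97 (SE 0.23, adjusted p = 1.14e-08), or 15.7-fold. The paper lists a shallower fall at another probe set of Sox6. Klf1, the factor that switches on beta globin and many membrane genes, changed by -2.74 (SE 0.23), from 11.94 to 12.72 down to 8.73 to 10.78. Gata1 itself fell less (-1.27, SE 0.13), as did its partner Zfpm1 (-1.17) and Tal1 (-0.96). Myb, Lmo2, Ldb1 and Bcl11a, which act in earlier or other blood cells too, were not called, although another probe set of Bcl11a fell (-0.42). Of 8 genes of erythropoietin signalling 2 fell, namely the receptor Epor (-1.31, SE 0.13) and the survival gene Bcl2l1 (-0.50), while Jak2, Stat5a and Stat5b did not pass the test.

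Red cell enzymes fell in 9 of 11 cases. Carbonic anhydrase 1, Car1, ran from 13.69 to 13.92 in vehicle rats and from 10.30 to 12.98 in topotecan rats (-2.45, SE 0.26), and Pklr, the pyruvate kinase of red cells, changed by -2.44 (SE 0.17). The antioxidant Prdx2 fell by 0.89 and Cat by 0.77. Bpgm, which makes the regulator of oxygen release, did not move past its error (0.02, SE 0.13). Among 6 genes for clearing organelles from late red cells 4 fell, led by Xpo7 (-1.66, SE 0.10), and Bnip3l, a receptor for removing mitochondria, was not called (-0.15, SE 0.08), although another of its probe sets fell (-0.36).

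Several of the largest falls lay in genes outside these lists. Ypel4, of the yippee-like family, was the deepest of all, from 10.28 to 11.08 in vehicle rats to 5.94 to 8.46 after topotecan (-3.99, SE 0.30, 15.9-fold). Plek2, a pleckstrin that acts on actin, changed by -3.78 (SE 0.23), and Spint1, an inhibitor of serine proteases at the cell surface, by -3.26 (SE 0.19). Fn3k, which removes sugars from proteins, changed by -2.96 (SE 0.15), the amino acid transporter Slc43a1 by -2.93 (SE 0.18) and the kinase Dyrk3 by -2.90 (SE 0.20). These genes were picked among those whose groups did not overlap.

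**Figure D2:**
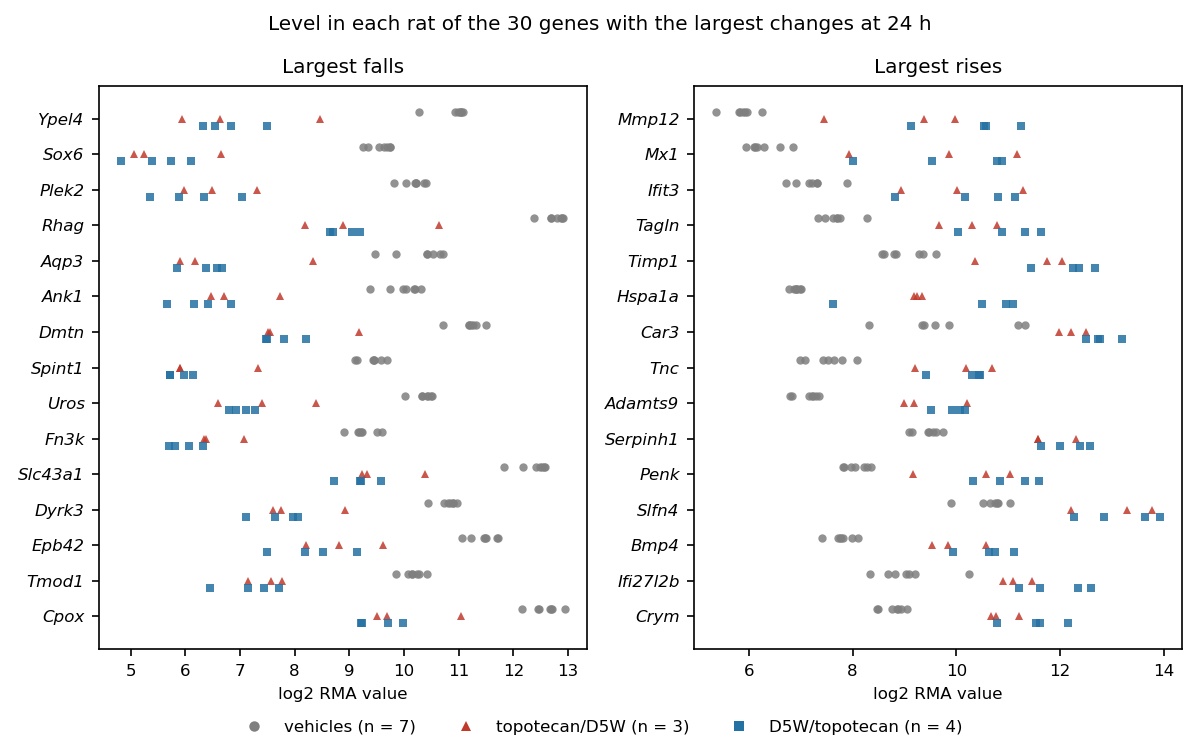
Log2 level in each rat (x axis) of the 15 genes with the deepest falls and the 15 with the largest rises at 24 h. Grey circles are vehicle rats (n = 7), red triangles topotecan/D5W rats (n = 3) and blue squares D5W/topotecan rats (n = 4). The genes were picked among those in which every treated rat lay beyond every vehicle rat, so their separation follows from the choice. The rightmost triangle in each of the falling genes is topotecan/D5W rat 35, for example at 10.64 for Rhag against 8.18 to 9.19 in the other treated rats.

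The promoters of a gene that fell and of one that did not are shown here because both are genes of the maturing red cell and GATA1 binds the letters (A or T) GATAA. The 250 bases before the RefSeq start of Klf1 are at chr19:40158652-40158901 (minus strand) and those of Alas2 at chrX:22895200-22895449 (plus strand) in GRCr8. Capitals mark AGATAA or TGATAA on either strand.

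Klf1: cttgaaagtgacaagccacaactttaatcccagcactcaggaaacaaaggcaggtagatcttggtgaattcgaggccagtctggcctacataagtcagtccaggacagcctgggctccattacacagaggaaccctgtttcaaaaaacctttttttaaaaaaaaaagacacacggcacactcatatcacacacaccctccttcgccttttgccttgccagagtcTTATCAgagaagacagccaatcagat
Alas2: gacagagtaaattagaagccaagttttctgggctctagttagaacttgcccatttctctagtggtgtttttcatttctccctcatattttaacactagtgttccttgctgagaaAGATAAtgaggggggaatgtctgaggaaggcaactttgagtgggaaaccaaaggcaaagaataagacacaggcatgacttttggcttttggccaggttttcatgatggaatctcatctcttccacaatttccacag

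Both promoters hold such a match, at 26 bases before the start in Klf1, which fell, and at 136 bases in Alas2, which was not called. The letters occur in 16.9% of 33469 promoters of this length. Among the genes that fell they occur in 3 of 13 membrane genes, 1 of 9 heme genes and 3 of 6 transcription factors with a promoter in the table. These matches describe the sequence alone.

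Genes of dividing cells were the other large group of falls. Of 40 mitosis genes 38 fell, 25 by more than 2-fold, with a median of -1.09 and no overlap between groups in 36. Ect2, which starts cytokinesis, went from 10.85 to 11.12 in vehicle rats to 8.63 to 10.07 (-1.70, SE 0.14, adjusted p = 1.87e-07). Mki67, a protein of all cycling cells, changed by -1.47 (SE 0.12), the mitotic cyclin Ccnb1 by -1.30 (SE 0.14) and the kinase Plk1 by -0.97 (SE 0.12). Melk (-0.35) and the phosphatase Cdc25b (0.14) were not called. The mean of the list was 9.56 to 9.94 in 6 of the treated rats, 10.46 in topotecan/D5W rat 35 and 10.97 to 11.15 in vehicle rats.

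DNA replication fell more widely than deeply. Of its 40 genes 37 fell and 8 did so by more than 2-fold, with a median of -0.80. Uhrf1, which keeps DNA methylation through replication, changed by -1.56 (SE 0.13) and the thymidylate synthase Tyms by -1.45 (SE 0.12). The helicase subunits Mcm2 to Mcm7 that were measured fell by 0.61 to 1.02, and the sliding clamp Pcna by 0.54 (SE 0.06). Of 19 genes of G1 and S phase control 13 fell and 3 rose. The S phase cyclins Ccne1 (-1.95, SE 0.13) and Ccne2 (-1.80, SE 0.10) fell most, whereas the G1 cyclin Ccnd1 rose from 7.73 to 8.17 in vehicle rats to 9.40 to 10.73 (2.19, SE 0.16). Ccnd2 (0.61) and the inhibitor Cdkn1c (1.04) were the other two that rose, Cdkn1c neither with the code column as a term (0.90, adjusted p = 0.0126) nor without rats 35, 90 and 96 (0.84, adjusted p = 0.0113).

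Genes that repair DNA breaks fell rather than rose. Of 23 measured, 20 fell and none rose, with a median of -0.69. Blm, a helicase of recombination, changed by -1.58 (SE 0.11), Nbn of the break-sensing complex by -1.44 (SE 0.14) and Brca1 by -1.14 (SE 0.11). The drug's target Top1 ran from 11.26 to 11.79 in vehicle rats and from 10.50 to 11.06 after topotecan, with no overlap (-0.87, SE 0.10, adjusted p = 3.05e-06). Top2a, a topoisomerase of dividing cells, changed by -1.11 (SE 0.12). Tdp1, which removes topoisomerase I from DNA ends, was not called (0.11, SE 0.07), and neither were Tdp2 (-0.06) and Xrcc1 (0.04).

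Targets of p53 were divided at 24 h. Of 20 measured, 8 rose and 6 fell, with a median of 0.17. Gdf15, a secreted stress factor, ran from 6.18 through 6.47 to 6.89 in vehicle rats and from 7.33 through 7.98 to 8.66 in topotecan rats (1.42, SE 0.19, adjusted p = 1.63e-05). Phlda3, a brake on AKT, rose by 1.24 (SE 0.16). Cdkn1a, the cell cycle inhibitor p21, rose by 0.99 (SE 0.15), although another probe set of the gene gave 0.39 and was not called. Ccng1 (0.57), Aen (0.65) and Sesn2 (0.48, another probe set 0.20 and not called) also rose. The phosphatase Ppm1d, which dampens p53, fell by 0.95 (SE 0.07), Gadd45a by 0.86 (SE 0.07) and the DNA damage sensor Ddb2 by 0.65 (SE 0.09), each with no overlap between groups. Mdm2, the ligase that removes p53, and Bbc3, its killer gene, did not pass (-0.24, SE 0.11, and 0.20, SE 0.08), although Mdm2 fell with the code column as a term (-0.38, adjusted p = 0.00558). Of 17 apoptosis genes 7 rose and 3 fell, all by less than 2-fold.

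No gene of the granulocyte granules changed by more than 2-fold. S100a8 and S100a9, the most abundant proteins of neutrophils, differed by -0.01 (SE 0.05) each, and like Hbb both sat close to the highest values on the arrays. Among 9 genes of late neutrophil granules 1 rose and 2 fell, of which Lcn2, an iron-trapping protein, was lower by 0.71 (-0.71, SE 0.19) and overlapped between the groups. It was not called in 6 of the 14 fits that left out 1 rat (-0.63 without topotecan/D5W rat 29), nor with the code column as a term (-0.64, adjusted p = 0.0428). Of 15 genes of mature neutrophils 8 rose, with the receptor Fcgr3a far ahead, from 8.37 to 9.88 in vehicle rats to 10.20 to 11.24 (1.59, SE 0.15). The growth factor receptor Csf3r rose by 0.68 (SE 0.10) and the decoy receptor Il1r2 by 0.80 (SE 0.11). Among 15 monocyte genes 4 rose and 2 fell. The Fc receptor Fcgr1a rose by 1.09 (SE 0.12), while Ccr2, the receptor that lets monocytes leave the marrow, was lower by 0.97 (-0.97, SE 0.23).

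Markers of resident macrophages rose in 17 of 19 cases with a median of 0.81, and 16 of them had no overlap between groups. Gpnmb, a glycoprotein of macrophages with full lysosomes, ran from 10.54 to 11.24 in vehicle rats and from 12.12 to 13.18 in topotecan rats (1.72, SE 0.16, adjusted p = 6.27e-07). Apoe rose by 1.32 (SE 0.17), Cd5l by 1.21 (SE 0.13) and the hemoglobin receptor Cd163 by 0.99 (SE 0.13), and the complement genes C1qa, C1qb and C1qc by 0.65 to 0.80. Hmox1, which breaks down heme, and Spic, the factor of red pulp macrophages, were not called (0.25, SE 0.13, and 0.15, SE 0.14). Of 20 lysosome genes 10 rose, most of all the protease Ctsl (1.34, SE 0.14).

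Of 19 genes of T and NK cells 17 rose, with a median of 0.70. The T cell receptor subunit Cd3e went from 6.17 to 6.92 in vehicle rats to 7.92 to 8.46 (1.63, SE 0.10, adjusted p = 1.82e-08), and the NK receptor Klrd1 from 5.02 to 5.25 to 5.95 to 6.83 (1.21, SE 0.13). Gzmb, a killer protease, was not called (-0.50, SE 0.41). Of 13 genes of B cell precursors 2 rose and 1 fell. Ms4a1, which is CD20 of maturing B cells, rose by 1.18 (SE 0.18), while the early B cell factor Ebf1 (0.24, SE 0.14) and Vpreb3 (0.02, SE 0.13) were not called. Plasma cell genes rose in 5 of 6 cases, led by Sdc1 (1.05, SE 0.15). Of 17 megakaryocyte and platelet genes only Tubb1 (0.56) and Mylk (0.98) rose, and the 1 that fell was Gata1, which red cell precursors share. Hoxa9, which acts in blood progenitors, rose by 1.18 (SE 0.11), and of the 10 stem and progenitor genes Runx1 (0.33) was the other one that did.

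The type I interferon response rose in 29 of 43 genes, 17 of them by more than 2-fold, with a median of 0.72. Mx1, a GTPase that blocks viruses, ran from 5.94 through 6.16 to 6.86 in vehicle rats and from 7.92 through 9.85 to 11.16 in topotecan rats. All treated rats lay above all vehicle rats, but they spread over more than 3 log2 units, from rat 35 to rat 36, both topotecan/D5W. The difference was 3.40 (SE 0.47, adjusted p = 2.3e-05), or 10.6-fold. Ifit3, which binds viral RNA, changed by 2.90 (SE 0.36), Isg15, a ubiquitin-like tag, by 2.22 (SE 0.41), Oas1a, which senses double-stranded RNA, by 1.92 (SE 0.18), and Irf7, the factor that amplifies the response, by 1.77 (SE 0.32). The receptor subunit Ifnar1 fell (-0.48, SE 0.11), and the sensor Ifih1 and the factor Irf9 were not called (0.26 and 0.22), although another probe set of Irf9 gave 0.51 and was.

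Besides the receptor, 3 members that interferon normally raises fell. Rsad2, the antiviral enzyme viperin, ran from 13.33 to 13.51 in vehicle rats and from 12.12 to 12.91 after topotecan (-0.83, SE 0.12, adjusted p = 2.58e-05). Cmpk2, a mitochondrial nucleotide kinase whose gene is the neighbour of Rsad2 on chromosome 6, changed by -1.07 (SE 0.17). Ifit1 changed by -1.03 (SE 0.20), while Ifit3 and Ifit2 on the same chromosome rose by 2.90 and 1.40 (SE 0.23).

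The promoters of 2 interferon genes that rose and of the 2 neighbours that fell are shown because they moved in opposite directions. They are the 250 bases before the RefSeq start in GRCr8, at chr1:241527076-241527325 for Ifit3 and chr12:41330216-41330465 for Oas1a (both plus strand), chr6:48788121-48788370 for Rsad2 (minus strand) and chr6:48802600-48802849 for Cmpk2 (plus strand). Capitals mark GAAA, any 2 bases and GAAA on either strand, the core letters of the interferon-stimulated response element.

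Ifit3: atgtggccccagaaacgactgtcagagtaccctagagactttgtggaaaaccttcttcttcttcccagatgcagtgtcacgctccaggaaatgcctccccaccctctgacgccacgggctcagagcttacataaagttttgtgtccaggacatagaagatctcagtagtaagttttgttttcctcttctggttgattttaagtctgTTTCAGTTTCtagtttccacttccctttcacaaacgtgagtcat
Oas1a: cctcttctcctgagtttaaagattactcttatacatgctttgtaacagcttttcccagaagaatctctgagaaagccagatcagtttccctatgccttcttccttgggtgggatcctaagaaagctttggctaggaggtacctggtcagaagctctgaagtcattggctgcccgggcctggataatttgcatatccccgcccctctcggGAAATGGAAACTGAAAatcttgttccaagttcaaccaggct
Rsad2: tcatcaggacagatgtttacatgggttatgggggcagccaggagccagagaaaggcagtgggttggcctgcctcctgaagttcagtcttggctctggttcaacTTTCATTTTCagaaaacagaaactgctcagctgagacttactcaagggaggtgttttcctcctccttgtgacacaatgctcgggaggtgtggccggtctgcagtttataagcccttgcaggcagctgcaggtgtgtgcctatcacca
Cmpk2: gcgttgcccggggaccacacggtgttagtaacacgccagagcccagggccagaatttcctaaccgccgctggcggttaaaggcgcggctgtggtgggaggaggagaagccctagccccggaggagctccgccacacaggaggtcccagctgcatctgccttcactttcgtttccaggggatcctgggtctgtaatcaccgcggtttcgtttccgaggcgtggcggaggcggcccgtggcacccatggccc

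Ifit3 holds 1 match at 44 bases before the start and Oas1a holds 2 that overlap, at 41 and 35 bases. Rsad2 holds 1 at 147 bases although it fell, and Cmpk2 holds none in this window. The letters occur in 3.41% of 33469 promoters, in 11 of 21 interferon genes that rose, in 1 of 3 that fell and in 5 of 10 that were not called. These shares are 52.4% of the genes that rose and 50% of those not called, and they describe the letters alone.

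Antigen presentation rose in nearly all its parts. Of 22 genes of the interferon gamma type and of antigen presentation 19 rose, with a median of 0.63, and none fell. RT1-Bb, a class II histocompatibility chain, went from 8.18 to 9.28 in vehicle rats to 9.72 to 11.33 (2.01, SE 0.27), although another probe set of the gene gave 0.19 and was not called, and its chaperone Cd74 from 11.89 to 12.45 to 13.19 to 13.62 (1.24, SE 0.10, adjusted p = 1.37e-07). The class II regulator Ciita rose by 1.05 (SE 0.17) and the interferon factor Irf1 by 0.89 (SE 0.07). Among 24 cytokine and inflammation genes 15 rose and none fell. Ccl2, which calls in monocytes, changed by 2.31 (SE 0.28), Il18 by 1.33 (SE 0.12) and Il1b by 1.27 (SE 0.12), while Il6 was not called (0.15, SE 0.08). Of 20 immediate early genes 13 rose, led by Fos (1.73, SE 0.14).

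Most genes of matrix, vessel and bone rose. Of 27 genes of collagen and its matrix 26 rose, 19 by more than 2-fold, with a median of 1.19, and fibronectin, Fn1, fell (-0.64, SE 0.14), though not with the code column as a term (-0.55, adjusted p = 0.0213). Timp1, an inhibitor of matrix proteases, ran from 8.57 to 9.61 in vehicle rats and from 10.37 to 12.68 after topotecan (2.75, SE 0.26). Serpinh1, the chaperone of collagen, went from 9.09 to 9.75 to 11.57 to 12.57 (2.54, SE 0.16, adjusted p = 2.11e-08). Tnc, a matrix protein of repair, changed by 2.57 (SE 0.23) and the fibrillar collagen Col5a2 by 1.96 (SE 0.19). Col1a1, the main collagen of bone, overlapped between the groups and had a wide error (1.43, SE 0.41). It was not called in 8 of the 14 fits that left out 1 rat (1.27 without vehicle rat 24).

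Of 16 osteoblast and osteocyte genes 13 rose, with a median of 1.21. The growth factors Bmp4 and Bmp2 led, with Bmp4 at 7.42 to 8.10 in vehicle rats and 9.53 to 11.12 in topotecan rats (2.50, SE 0.20) and Bmp2 changed by 2.14 (SE 0.21). Another probe set of Bmp2 rose less, by 1.12. The bone proteins Bglap (1.33, SE 0.26) and Ibsp (1.18, SE 0.34) rose with overlapping groups, and Ibsp was not called in 10 of the 14 fits that left out 1 rat (0.97 without vehicle rat 24). Endothelial genes rose in 13 of 16 cases with a median of 0.59. The sinusoidal receptor Stab1 changed by 1.46 (SE 0.19) and Lyve1 by 1.38 (SE 0.27). Of 15 genes of the niche stroma 8 rose and 1 fell, with a median of 0.62. Kitlg, the ligand that sustains blood stem cells, rose by 1.46 (SE 0.18) and Cxcl12, which holds them in the marrow, by 0.80 (SE 0.09), while Igfbp5, which binds insulin-like growth factors, fell (-1.37). Of 10 genes of marrow fat cells 9 rose and 1 fell, with a median of 0.54. Lpl, which marks fat cells, rose by 1.78 (SE 0.21), but Cd36, which red cell precursors also carry, fell by 1.96 (SE 0.20).

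Muscle and cartilage genes, from tissue around the marrow, were set beside these stromal rises. The muscle list rose in 2 of 17 genes, where 25.0% of all genes rose, and its median was 0.26. Its mean reached 5.98 in the highest vehicle rat and began at 5.98 in the lowest topotecan rat. Acta1, the actin of skeletal muscle, was at 4.47 to 5.07 in vehicle rats and at 4.87 to 9.15 after topotecan (1.91, SE 0.58, adjusted p = 0.0107). Of 6 cartilage genes 1 rose (Col11a1, 1.40, SE 0.33), and the list mean was 6.14 to 6.87 in vehicle rats and 6.15 to 8.54 in topotecan rats. D5W/topotecan rat 90 was highest in the muscle, cartilage, osteoblast and collagen means (7.08, 8.54, 9.36 and 10.51). Topotecan/D5W rat 29 had nearly the same osteoblast and collagen means (9.23 and 10.46). Its muscle mean was 6.16 and its cartilage mean 7.72, both above every vehicle rat. Rat 96, at 6.82 in muscle, had the lowest cartilage mean of the treated rats (6.15). Without rats 35, 90 and 96, the osteoblast list still rose in 11 genes, the collagen list in 24, the endothelial list in 10 and the type I interferon list in 24, whereas Col1a1 (1.23, adjusted p = 0.0301) and Ibsp (1.06, adjusted p = 0.0146) were not called. The part of surrounding tissue in these values was not tested.

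Other genes stood out among the rises. Mmp12, the elastase of macrophages, had the largest rise of all, from 5.37 to 6.25 in vehicle rats to 7.45 to 11.24 (3.76, SE 0.38, 13.6-fold). Tagln, which binds actin in smooth muscle, changed by 2.89 (SE 0.23) and the heat shock chaperone Hspa1a by 2.74 (SE 0.41). Car3, a carbonic anhydrase of fat and muscle, changed by 2.70 (SE 0.39), and its vehicle values were themselves spread from 8.32 to 11.32. The opioid precursor Penk (2.54, SE 0.26), the matrix protease Adamts9 (2.57, SE 0.19), Slfn4, a Schlafen gene of myeloid cells (2.51, SE 0.28), and Crym, which binds thyroid hormone (2.43, SE 0.19), rose as well. Gsta4, a glutathione transferase in the oxidant list, went the other way (-2.74, SE 0.16), and that list as a whole was divided, with 5 of 22 genes risen and 6 fallen.

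The 24 h response was set against those of 1 and 6 h after dosing, measured in other rats with vehicles of the same time (8 topotecan and 8 vehicle rats at each earlier time). The sample codes of the 24 h arrays belong to another series than those of 1 and 6 h. At 1 and 6 h the D5W/topotecan rats shared a code column with no vehicle rat. Drug and column cannot be told apart in those rats, and the column was not a term in these comparisons. Against 6 h, the effect at 24 h was higher in 178 probe sets (1.42%) and lower in 370 (2.95%) at an adjusted p under 0.01 and a fold above 2. Against 1 h it was higher in 833 (6.65%) and lower in 564 (4.50%), where the median probe set lay 0.12 higher, and a second quantile normalization turned that split to 615 and 744. Among genes at an adjusted p under 0.01, 21.2% were higher at 24 h than at 6 h and 9.04% lower.

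The red cell membrane genes fell mostly after 6 h. Their median effect was -0.17 at 1 h, -0.44 at 6 h and -2.31 at 24 h, and 14 of the 17 genes were lower at 24 h than at 6 h. Slc4a1 had an effect of -0.01, -0.11 and -2.45 at the 3 times, and its 24 h effect was lower than that of 6 h by 2.35 (-2.35, SE 0.23, adjusted p = 3.54e-10). Heme synthesis had medians of -0.10, -0.95 and -1.48, and Uros stood at -2.45 at 6 h. Sox6, at the single probe set used above, was low at 1 h and at 24 h but not at 6 h, with effects of -2.25, -0.14 and -3.97. Tfr2 ran the other way between the later times, from -3.30 at 6 h to -1.94 at 24 h (difference 1.36, SE 0.27).

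Mitosis had medians of -0.48, -1.19 and -1.09, and DNA replication of -0.26, -1.02 and -0.80, with 16 of the 40 replication genes higher at 24 h than at 6 h. Mcm6 was higher at 24 h by 0.66 (SE 0.13) and Plk1 by 0.95 (SE 0.16), while Ccnb1 did not differ past its error (0.07, SE 0.18). Bex4, a brain-expressed X-linked family member, had an effect of -4.58 at 6 h and -2.09 at 24 h.

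Of the 20 p53 targets 12 had risen and 3 fallen at 6 h, when 1644 of all 7810 genes had risen and 2679 fallen. Of these targets 5 were lower at 24 h than at 6 h. The median effect was 1.17 at 1 h, 0.47 at 6 h and 0.17 at 24 h. Gdf15 stood at 4.15, 3.48 and 1.42, and fell by 2.06 between 6 and 24 h (-2.06, SE 0.24, adjusted p = 9.19e-09). The difference of Cdkn1a from 1.74 to 0.99 did not pass at 0.01 (-0.74, SE 0.27, adjusted p = 0.0235). Immediate early genes had medians of 0.92, 0.67 and 0.42, and 9 of 20 were lower at 24 h than at 6 h.

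Of the 27 collagen genes 10 were higher at 24 h than at 6 h. The list had medians of 0.28, 0.64 and 1.19, and Serpinh1 effects of 0.57, 0.64 and 2.54, with the 24 h effect 1.90 above that of 6 h (SE 0.22). Adamts9, Crym, Car3, Olfml3, Abi3bp and Kazald1, all proteins of the matrix or of stromal cells except Crym and Car3, were also higher by 1.99 to 2.69. Mmp12 had a higher effect at 6 h (5.03) than at 24 h, by 1.26 (24 h minus 6 h -1.26, SE 0.32). Mx1 had an effect of 0.56 at 1 h and 2.10 at 6 h, and the further 1.30 by 24 h did not pass (SE 0.63, adjusted p = 0.0957). Rsad2 changed direction, from 0.59 at 6 h to -0.83, and its 24 h effect was lower by 1.41 (-1.41, SE 0.14, adjusted p = 1.95e-10). Ifit1 (-2.30, SE 0.68) and Cmpk2 (-1.28, SE 0.20) were lower at 24 h as well.

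**Figure D3:**
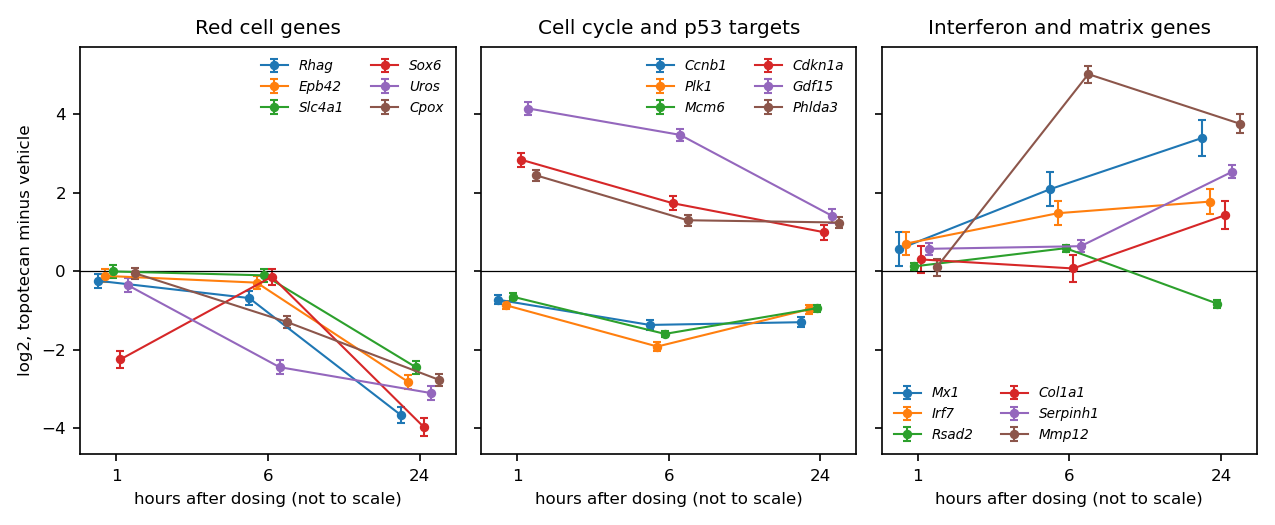
Effect of topotecan (y axis, log2 topotecan minus vehicle of the same time) at 1, 6 and 24 h after dosing (x axis, not to scale) for 18 genes, with bars of 1 SE from a fit of 46 arrays. Rhag goes from -0.69 at 6 h to -3.67 at 24 h and Slc4a1 from -0.11 to -2.45. Gdf15 declines from 4.15 to 1.42, and Rsad2 crosses from 0.59 to -0.83. Mx1 is drawn higher at 24 h than at 6 h, but that difference did not pass the test.

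Oxaliplatin at 15 mg/kg, a platinum drug that crosslinks DNA, was given to 8 rats and measured at the same 24 h. The doses of the drugs are not matched in any measure given here, so the values stand side by side. The topotecan rats were higher than the oxaliplatin rats in 17 probe sets (0.136%) and lower in 65 (0.519%) at an adjusted p under 0.01 and a fold above 2. At an adjusted p under 0.01 alone, 18.1% of all genes were higher and 8.17% lower after topotecan. Of the oxaliplatin/NaCl rats, 2 had a high muscle mean (8.96 and 8.92), and without them the counts were 14 and 84.

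Of the 20 p53 targets 14 were lower after topotecan and none higher. Gdf15 was at 7.33 to 8.66 after topotecan and 9.07 to 10.83 after oxaliplatin, a difference of -1.93 (SE 0.27, adjusted p = 1.58e-05) with no overlap. Cdkn1a differed by -1.59 (SE 0.15), Ccng1 by -1.08 (SE 0.11) and Phlda3 by -0.88 (SE 0.10). Of the 17 membrane genes 13 were lower after topotecan, among them Slc4a1 by 1.56 (-1.56, SE 0.21), at 9.52 to 11.76 against 11.99 to 12.74. Heme synthesis differed in 2 of 12 genes, and Cpox was not among them (0.05, SE 0.19).

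Other genes were higher after topotecan. Car1 was at 10.30 to 12.98 after topotecan and 7.60 to 9.60 after oxaliplatin (2.94, SE 0.27, adjusted p = 2.39e-07), against 13.69 to 13.92 in vehicle rats. The monocyte receptor Ccr2 was higher by 2.19 (SE 0.26), the ficolin Fcnb of early granulocytes by 1.84 (SE 0.22) and Bex4 by 2.61 (SE 0.21). Against vehicle these genes had fallen after topotecan too (Ccr2 -0.97, Fcnb -0.53, Bex4 -2.09), and they were lower still after oxaliplatin. Of 13 genes of B cell precursors 11 were higher after topotecan, of 43 ribosomal protein genes 33, and of 40 replication genes 19. Against vehicle, the replication list had a median of -0.80 after topotecan and -1.08 after oxaliplatin. The medians were -0.11 and -0.31 for ribosomal proteins, and 0.11 and -0.50 for B cell precursors. Lcn2 (-1.51, SE 0.16), the chitinase Chit1 (-1.79, SE 0.12), the activin subunit Inhba (-1.50, SE 0.13) and the acute phase protein Orm1 (-1.45, SE 0.14) were lower. Of 43 type I interferon genes 3 were lower and none higher, and of 16 osteoblast genes none differed past the test. Mx1 (0.85, SE 0.48), Serpinh1 (0.07, SE 0.14) and Bmp4 (0.02, SE 0.17) did not pass. Rsad2 did (-0.81, SE 0.11), at -0.83 after topotecan and -0.02 after oxaliplatin.

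**Figure D4:**
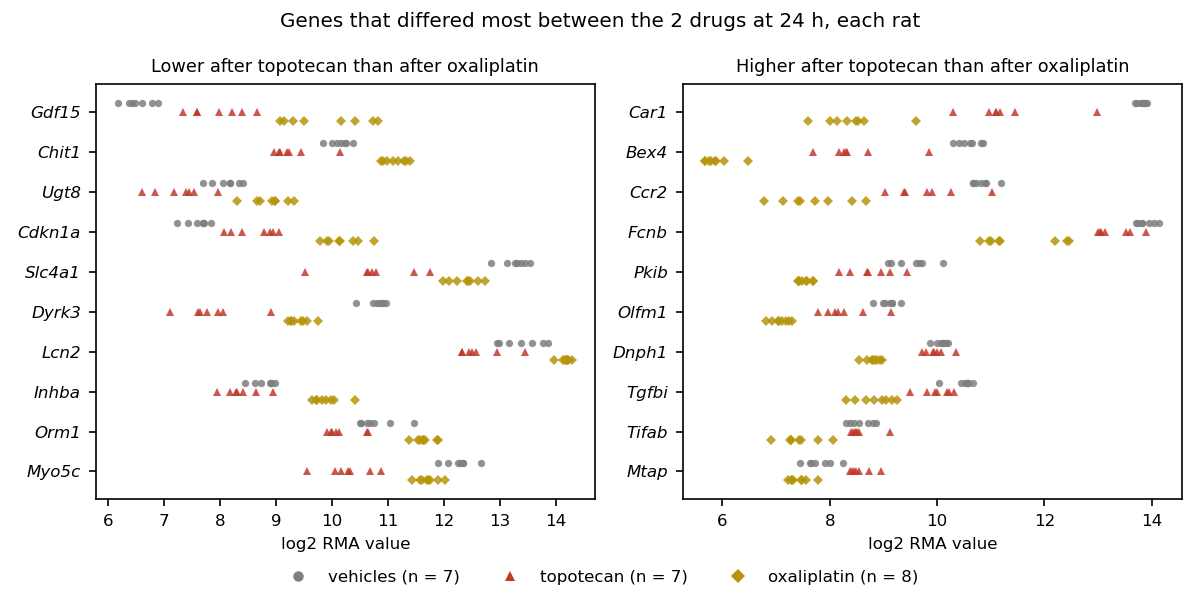
Log2 level in each rat at 24 h (x axis) of the 10 genes that were lowest and the 10 that were highest after topotecan beside oxaliplatin. Grey circles are vehicle rats (n = 7), red triangles topotecan rats (n = 7) and gold diamonds oxaliplatin rats (n = 8). For Gdf15 the topotecan rats lie at 7.33 to 8.66 between the vehicle and the oxaliplatin rats, and for Car1 at 10.30 to 12.98 they do so too.

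The treated rats differed among themselves more than the vehicle rats. Taken within infusion orders, the median gene had an SD of 0.181 over topotecan rats and 0.152 over vehicle rats. The gene at the ninetieth percentile had 0.376 and 0.271. Topotecan/D5W rat 35 was highest of the 7 in the red cell membrane (9.95 against 8.79 to 9.47), heme and mitosis means, and lowest in the type I interferon mean (9.01). D5W/topotecan rat 95 was lowest in the red cell membrane mean (8.79) and second lowest in the interferon mean (9.09). Rat 36 had the highest interferon mean (10.09), with a red cell mean (9.20) at the median. By the same SD within orders, the muscle gene Acta1 (SD 1.80) and the cartilage gene Col10a1 (SD 1.77) varied most over the treated rats. Myl1 (SD 1.71) and Mx1 (SD 1.47) followed.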

How the data were processed

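Marrow RNA was hybridised to Affymetrix whole-genome rat arrays, 1 array a rat. The deposited values are log2 signals. The authors summarised the probes by RMA, which subtracts background, gives all arrays the same distribution and fits each probe set by median polish, and they applied a filter of probe sets that their methods name. Of 12560 probe sets 28 controls were left out and 12532 tested; 10002 carried 1 gene symbol, 292 several and 2238 none, which left 7810 genes, each represented by whichever probe set was brightest on average. Medians of the 14 arrays were 9.06 to 9.20. Linear models were fitted with limma 3.58.1 in R 4.3.3 on the 14 arrays, with infusion order as a term and Benjamini-Hochberg adjustment over all probe sets (threshold adjusted p under 0.01 and fold above 2). Times were compared over 46 arrays and the drugs over the 22 single-drug and vehicle arrays of 24 h, each as a difference of effects or of groups. The number of arrays limits the precision. Scripts were tested on simulated data.

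Named genes were the 15 largest rises and falls with separated groups, 10 in each direction for the other comparisons, and members of fixed lists. The members and lists were chosen with earlier results of these data known. Alternatives were another normalization or centring, all 93 arrays in 1 fit, each order alone, the sample code column, looser thresholds, a filter on low values, and each rat left out. Promoters are RefSeq, assembly GRCr8.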

Additional observations from a re-analysis of the deposited data

Results flagged for a closer look

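Among 100 groups of values tested for a rat far from the others of its group, 11 had one, where chance gives about 1 in 20. The groups hold the same rats and are not independent, so that rate is a rough guide only. Topotecan/D5W rat 35 was the far rat in 6 of them. Its mean was 10.46 for mitosis (others 9.56 to 9.94) and 10.05 for DNA replication (9.64 to 9.75). Its level was 10.64 for Rhag (8.18 to 9.19), 8.33 for Aqp3 (5.85 to 6.66), 7.33 for Spint1 (5.71 to 6.13) and 11.04 for Cpox (9.21 to 9.99), each nearer to the vehicle rats.

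Vehicle D5W/NaCl rat 24 was low in the mean of the red cell transcription factors at 10.88 (others 11.20 to 11.39), in Ypel4 at 10.28 (10.93 to 11.08) and in Dmtn at 10.72 (11.18 to 11.50). Vehicle D5W/NaCl rat 17 was low in Uros at 10.03 (10.32 to 10.51) and in Dyrk3 at 10.43 (10.74 to 10.97).

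The effect of topotecan differed between times by the test of the difference itself. Between 24 and 6 h, 178 probe sets were higher and 370 lower at 24 h, and between 24 and 1 h, 833 were higher and 564 lower. A second quantile normalization turned the split against 1 h to 615 higher and 744 lower.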

How the results depend on the processing

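The 486 probe sets higher and 590 lower after topotecan ranged from 444 to 554 and from 546 to 664 when each rat was left out in turn. Adjusted p under 0.05 with a fold above 1.5 gave 1444 higher and 1394 lower, leaving out the lower quartile of probe sets 280 higher, and the 4 rats of the code column ending in 03 alone 139 and 278, with fewer rats or probe sets in the latter settings. Without topotecan rats 35, 90 and 96, a setting chosen after seeing the data, 493 were higher and 662 lower. The planned limit on muscle genes left out none of the 14 arrays. No probe set differed by order with any rat left out (0 to 0). Against oxaliplatin, 14 to 20 were higher and 56 to 84 lower.

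Of 100 list counts under alternatives 84 stayed within 1.5 times the count given above. With D5W/topotecan rats alone, the genes that fell were 8 in G1 and S phase control, and those that rose 12 in type I interferon, 9 in interferon gamma, 10 in T and NK cells, 5 in endothelium, 7 in osteoblasts, 3 in mature neutrophils, 4 in p53 targets and 4 in immediate early genes. With topotecan/D5W rats alone, 10 break repair genes fell, and 16 type I interferon, 7 cytokine, 8 endothelial, 3 mature neutrophil, 5 p53 and 4 immediate early genes rose. These settings hold fewer rats, and in the setting with D5W/topotecan rats drug and code column cannot be told apart. Of 152 named genes called, 7 lost the call without at least 1 of the rats, namely Col1a1, Ibsp, Slc40a1, Lcn2, Orm1, Runx1 and Tubb1, and none of the called ones changed sign with a rat left out, another probe set, the code column as a term or without rats 35, 90 and 96. With the code column Cdkn1c, Fn1, Lcn2, Runx1, Slc40a1 and Tubb1 lost the call and Mdm2 and Col10a1 gained it. Without the 3 rats Cdkn1c, Col1a1, Ibsp, Runx1 and Slc40a1 lost it and Melk gained it (-0.40). No paired analysis was possible because the rat numbers in the labels are not shared between groups.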
